A study of Homo sapiens with 8 samples.

Results

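The genes described here are the 126 rows of a 13471-row gene table whose name consists of LINC and a number, the label that nomenclature committees give to a long intergenic noncoding RNA with no named function. RNA was measured in hTERT-RPE1, a human retinal pigment epithelium line immortalised with telomerase, before and after immunoprecipitation (IP) of hnRNP U (also called SAF-A). For interphase, thymidine at 2 mM was applied for 24 h to stall replication. For mitosis, the same block was followed by 6 h of release and a night in S-Trityl-L-cysteine, which inhibits the mitotic kinesin Eg5. Each state was sequenced with no antibody and after IP with an anti-hnRNP U antibody, with 2 libraries for each of the resulting 4 groups (8 in all). All groups come from 1 immortalised line, both states were reached with drugs, and the labels give 1 protocol for all libraries, a detergent lysate cleared by centrifugation. No control IP was used here, so binding to hnRNP U and carry-over on beads cannot be told apart. The labels do not say whether replicates came from separate cultures, so p-values measure only the spread between these libraries.

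Long intergenic noncoding RNAs are transcribed between protein-coding genes, and many are spliced, capped and polyadenylated like mRNAs. Some stay in the nucleus near chromatin and others act in the cytoplasm, where they can bind RNA-binding proteins or microRNAs. A few loci first named as noncoding were later found to be translated into very small proteins. hnRNP U is an abundant nuclear protein with a DNA-binding and an RNA-binding domain that links RNA to chromatin in interphase.

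The name did not mark a uniform class. In GENCODE release 29 (GRCh38, the assembly of the table), 95 of the 126 genes were found by symbol and 25 by an older symbol, and 6 had no match. Among the 25, LINC00619, LINC00673 and LINC01317 were matched to LINC00840, LINC00511 and LINC01320, although RefSeq lists them under their own symbols. Of the matched genes, 83 were lincRNAs, 13 antisense RNAs, 8 processed transcripts, 4 transcribed pseudogenes and 12 protein-coding genes. In RefSeq, 38 of the 126 now have another symbol, such as NORAD for LINC00657, CYTOR for LINC00152, MANCR for LINC00704 and CHASERR for LINC01578, and 12 are protein-coding. The interval of 111 genes overlapped no other row of the table, and that of 15 overlapped at least 1 other row.

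Most of these genes were low. Levels are FPKM (fragments per kilobase of transcript and per mapped fragments of the library), so they are relative to the other RNA in the same library. The median of the mean FPKM over the 8 libraries was 1.13 for the 126 genes against 7.64 for all rows, and 61 of them (48.4%) had a mean below 1 FPKM against 16.3% of all rows. A further 54 had a mean of 1 to 10 FPKM and 11 a mean of at least 10. Replicates of a group correlated across the 126 genes with Pearson's r between 0.973 and 0.989 after log2 transformation (genes are not independent replicates), and their log2 values differed with an SD of 0.21 to 0.30. The deposited values give no fragment totals. Some low FPKM values lay on whole-fragment steps. The most frequent ratio to the first interphase library without IP was shared by 47 to 122 of 1776 to 2090 low rows. These ratios put the relative depth of the libraries between 0.639 and 1.19 of that library, both ends being mitotic IP libraries. For 52 of the 126 genes the values in all 8 libraries were whole numbers of fragments to within 0.05 of a fragment, and 10 of these had at most 10 fragments in each library.

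The labelled states and cell type were checked first. Without IP, the mitotic cyclin CCNB1 had a mean of 31.4 FPKM in interphase and 72.5 in mitosis, and the S-phase histone gene HIST1H4C 2144 and 61.0. Of 8 markers of retinal pigment epithelium, 3 were in the table (MITF at 9.59 FPKM and OTX2 at 8.54 FPKM in interphase without IP, PMEL at 0.114), and RPE65, which defines the mature tissue, was not a row of it. All 3 keratins of the list and none of 3 markers of other cell types (PTPRC, PECAM1, MYOD1) were in it.

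LINC00657, or NORAD, was the most abundant of the 126 genes and one of those most raised by the IP. NORAD is a conserved, mainly cytoplasmic RNA that is needed for faithful chromosome segregation. Its single exon lies on the minus strand of chromosome 20 (hg38 chr20:36045618-36050960) and is 5339 nt long in GENCODE.

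LINC00657 had 115 and 130 FPKM in interphase without IP, 386 and 458 in the interphase IP, 78.0 and 79.0 in mitosis without IP and 228 and 237 in the mitotic IP. The 4 groups did not overlap: both IP groups lay above both groups without IP, and within each kind of library mitosis lay below interphase. In interphase the IP raised it by 1.78 ± 0.14 (SE) on the log2(FPKM + 1) scale and in mitosis by 1.55 ± 0.14, with adjusted p of 4.57e-06 and 2.39e-05 (limma, Benjamini-Hochberg over all 13471 rows, as for every adjusted p here). The difference of these effects, -0.22 ± 0.20, did not pass the test (limma adjusted p = 0.388). Under quantile normalization the difference was -1.01, with a limma adjusted p of 0.00968. Without IP, LINC00657 fell by 0.63 ± 0.14 from interphase to mitosis (limma adjusted p = 0.00521), and this call was lost without interphase no-IP replicate 2, at -0.54 (limma adjusted p = 0.0518). This one RNA made up 17.6% to 19.7% of the summed FPKM of the 126 genes in the libraries without IP, 46.2% to 47.7% in the interphase IP and 35.8% to 36.9% in the mitotic IP. The FPKM sum of the other 125 genes was 498 and 530 in interphase without IP and 449 and 503 in the interphase IP, which overlapped. In mitosis it was 342 and 370 without IP and 409 and 405 in the IP, which did not.

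LINC00152, or CYTOR, moved the other way. CYTOR is a mainly cytoplasmic RNA studied for its high levels in tumours and its link to cell growth. It was the most lowered of the 126 genes in the interphase IP: 90.7 and 85.3 FPKM in interphase without IP, 9.45 and 8.45 in the interphase IP, 30.8 and 28.1 in mitosis without IP and 11.5 and 8.64 in the mitotic IP. The IP groups overlapped each other, while both stood below both groups without IP. The IP difference was -3.16 ± 0.13 in interphase and -1.47 ± 0.13 in mitosis (limma adjusted p of 3.26e-07 and 2.63e-05), so the drop was smaller in mitosis by 1.69 ± 0.19 (limma adjusted p = 0.000216). Without IP its level fell by 1.55 ± 0.13 from interphase to mitosis (limma adjusted p = 5.42e-05), and in the IP it differed by 0.14 ± 0.13 (limma adjusted p = 0.382). The locus on chromosome 2 (hg38 chr2:87455455-87521511) has a near-identical copy on the same chromosome, MIR4435-2HG, and reads that both could have given may have been split between them. MIR4435-2HG had 54.9 and 62.0 FPKM in interphase without IP and 14.0 and 16.4 in the IP, and 41.0 and 31.2 in mitosis without IP and 32.0 and 25.4 in the IP. Its IP difference was -1.88 in interphase (limma adjusted p = 8.01e-06) and -0.31 in mitosis (limma adjusted p = 0.12).

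**Figure D1:**
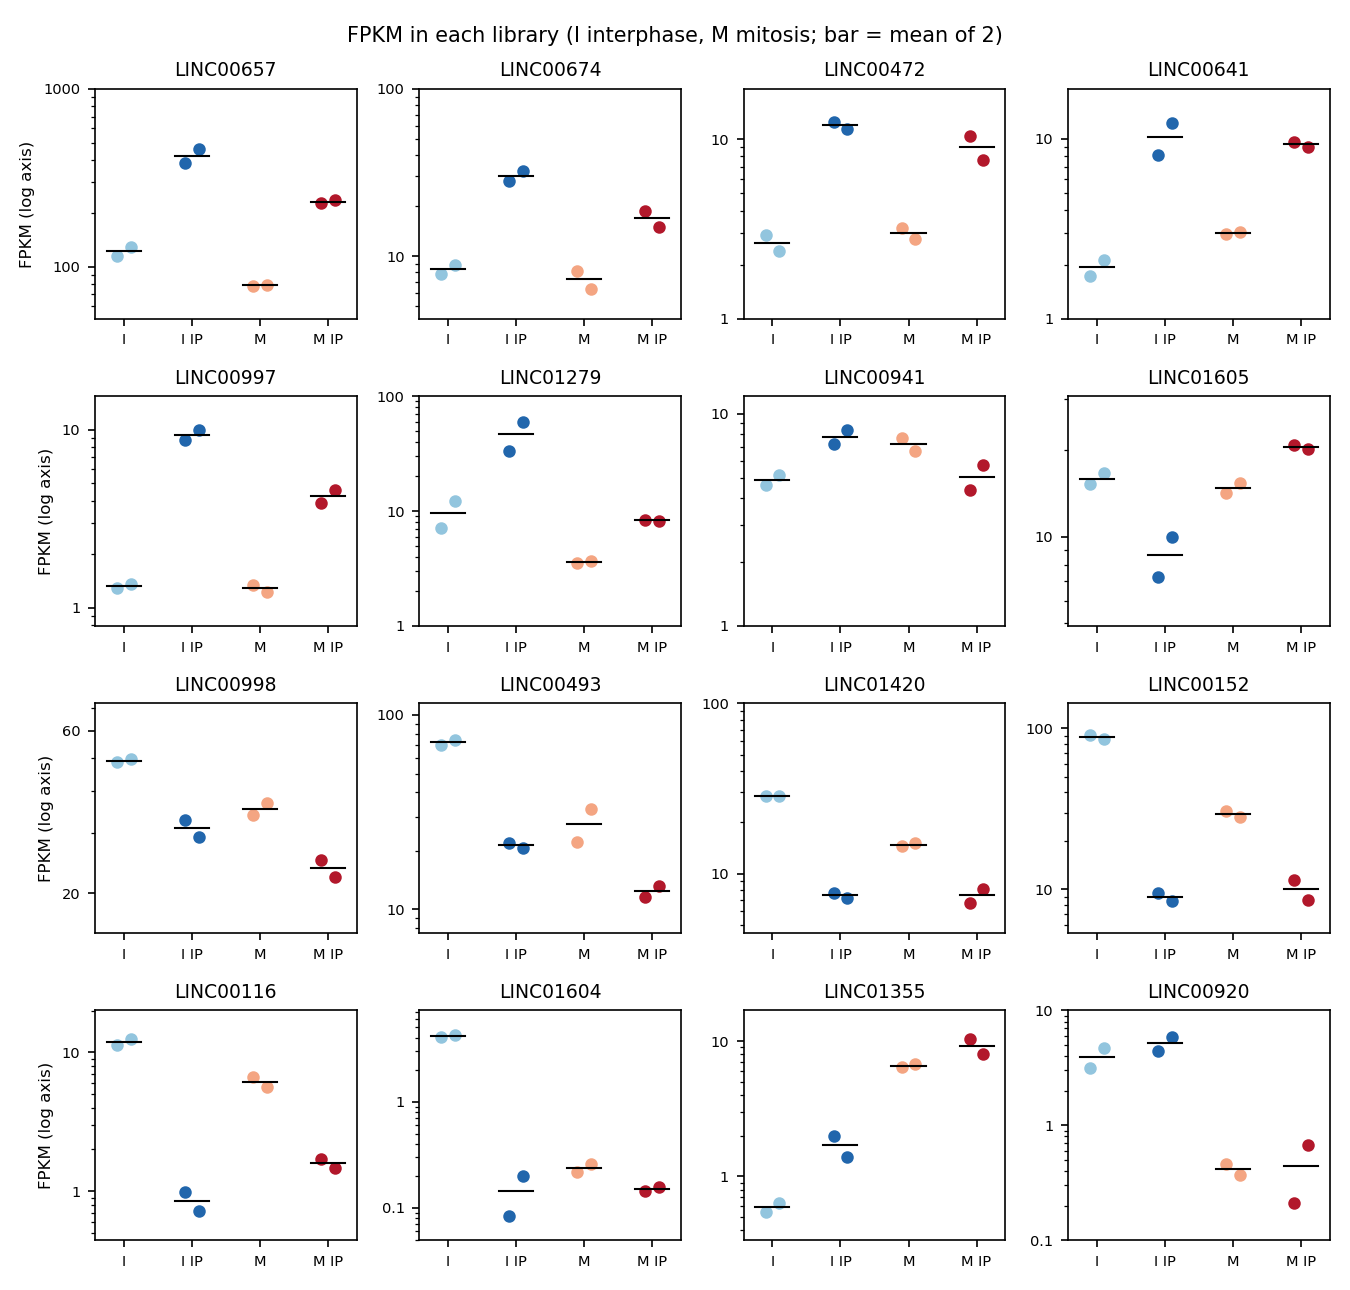
FPKM of 16 LINC genes in each of the 8 libraries, on a log axis that differs between panels (I, interphase; M, mitosis; points, libraries; bars, mean of 2). LINC00657 is higher in both IP groups, while LINC00152, LINC00116, LINC01420, LINC00493 and LINC00998 are lower in both.

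Of 9 LINC-named loci listed as coding for a small protein, 4 were in the table, and all 4 were lower in the IP in both phases. Of all 13471 rows, 37.0% were called lower with the IP in interphase, 31.7% in mitosis and 23.0% in both. The list was chosen with earlier results of these data known, so the 4 are not an independent result. LINC00116 encodes mitoregulin (MTLN), a microprotein of mitochondria, and had 11.3 and 12.4 FPKM in interphase without IP, 0.982 and 0.717 in the interphase IP, 6.61 and 5.65 in mitosis without IP and 1.72 and 1.46 in the mitotic IP. The 4 groups did not overlap, and the IP groups were the lowest. The IP difference was -2.80 ± 0.13 in interphase and -1.46 ± 0.13 in mitosis (limma adjusted p of 4.98e-07 and 2.73e-05). The effect differed between the phases by 1.34 ± 0.19 (limma adjusted p = 0.000658), a drop that was smaller in mitosis.

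LINC01420 encodes NBDY, a microprotein of the mRNA decapping complex and P-bodies, and its interval on chromosome X overlaps the row UQCRBP1. It had 28.5 and 28.3 FPKM in interphase without IP, 7.71 and 7.23 in the interphase IP, 14.4 and 15.0 in mitosis without IP and 6.73 and 8.16 in the mitotic IP. The IP groups overlapped each other and lay below both groups without IP. The IP difference was -1.80 ± 0.11 in interphase and -0.90 ± 0.11 in mitosis (limma adjusted p of 1.4e-06 and 0.000123), and the 2 effects differed by 0.89 ± 0.16 (limma adjusted p = 0.0019).

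LINC00493 encodes SMIM26, a small mitochondrial membrane protein, and had 69.7 and 74.8 FPKM in interphase without IP, 22.0 and 20.8 in the interphase IP, 22.1 and 32.8 in mitosis without IP and 11.6 and 13.2 in the mitotic IP. Each IP group lay below its own group without IP, and the first mitotic library without IP, at 22.1 FPKM, lay next to the interphase IP. With the IP the values differed by -1.71 ± 0.17 in interphase and -1.06 ± 0.17 in mitosis (limma adjusted p of 1.61e-05 and 0.000479). With the trends on transcript length and GC content removed, the values were -0.03 and -0.33, neither of which passed the test. The difference between phases was 0.65 (limma adjusted p = 0.049). This call was lost without any 1 of 7 libraries, with values of 0.37 (without mitosis no-IP replicate 1) to 0.73 (without mitosis IP replicate 1), the remaining one being mitosis no-IP replicate 2. It was also lost at a pseudocount of 0.1 (0.63), with quantile normalization (0.55) and with equalised medians (0.62). LINC00998 encodes SMIM30, a small membrane protein, and was the second most abundant of the 126 genes. It had 48.4 and 49.5 FPKM in interphase without IP, 32.7 and 29.3 in the interphase IP, 33.9 and 36.8 in mitosis without IP and 25.0 and 22.2 in the mitotic IP. The ranges of the 4 groups did not overlap. The IP effect on it was -0.65 ± 0.10 in interphase and -0.56 ± 0.10 in mitosis (limma adjusted p of 0.000434 and 0.00139). Over all 12 members with a GENCODE protein-coding type, 2 rose and 4 fell in the interphase IP, and 2 rose and 4 fell in the mitotic IP. The 4 that fell are 33.3% of the 12 in either phase, near the shares of all rows called lower (37.0% and 31.7%).

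Over all 126 genes, the IP raised 35 and lowered 21 in interphase, at a median difference of 0.08 log2 units against 0.02 for all rows. Over all rows, 37.6% were called higher and 37.0% lower in interphase (74.6% in all), so the share of LINC genes called, 44.4%, was lower than in the table as a whole. In mitosis the IP raised 33 and lowered 14, at a median of 0.10 against 0.01 for all rows, where 32.8% of all rows were called higher and 31.7% lower (64.5% in all). Calls were concentrated in the better measured genes: of the 65 with a mean of at least 1 FPKM, 27 rose and 15 fell in interphase and 28 rose and 11 fell in mitosis, while of the 61 below 1 FPKM, 8 rose and 6 fell, and 5 rose and 3 fell. A fit of only the rows with a mean of at least 1 FPKM left out 16.3% of all rows. In it 27 LINC genes rose and 15 fell in interphase, against 4684 and 4498 of all rows fitted. In mitosis 28 LINC genes rose and 10 fell, against 4196 and 4089. The split depended on the scaling. With the library medians equalised, 50 rose and 17 fell in interphase and 47 rose and 8 fell in mitosis. Of all 13471 rows, 5778 rose and 4499 fell in interphase and 5042 rose and 3793 fell in mitosis at that setting. With quantile normalization 45 rose and 17 fell in interphase, against 5562 and 4569 of all rows. With the trends on length and GC content removed, 68 of the 120 LINC genes with an annotated transcript rose and 20 fell in interphase. Of the 13188 rows with one, 4415 rose and 3740 fell. Equalising the medians moved the median difference of all rows by 0.12 in interphase. The median of the LINC genes also moved: in interphase it was 0.28 at a pseudocount of 0.1 (0.04 for all rows), 0.30 for those with a mean of at least 1 FPKM and 0.48 with the trends removed. In mitosis these values were 0.31 (0.01 for all rows), 0.31 and 0.23. Without mitosis IP replicate 1, the number that fell in mitosis was 9.

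In both phases 24 of the 126 LINC genes rose in the IP (19.0%) and 9 fell (7.14%), against 24.8% and 23.0% of all 13471 rows. A further 21 were called in interphase and not in mitosis, 12 in mitosis and not in interphase, and 58 in neither. The remaining pair, LINC00941 and LINC01605, changed in opposite directions. Apart from calls of the same sign in both phases, these splits were not counted over all rows.

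**Figure D2:**
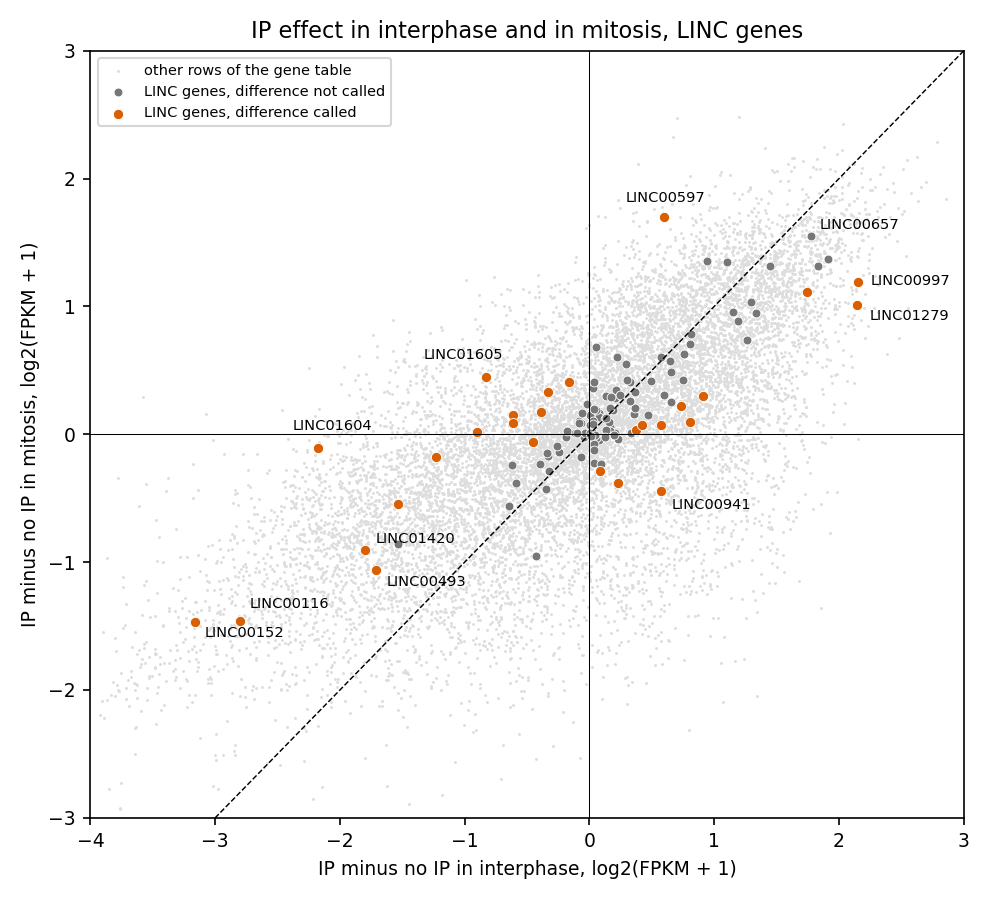
IP minus no IP on the log2(FPKM + 1) scale in interphase (horizontal) and mitosis (vertical) for the 126 LINC genes and, in pale grey, the other rows of the table; the dashed line marks equal effects. Orange points are the 28 LINC genes whose 2 effects differ by the test; 30 other rows lie outside the axes.

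Among the noncoding genes, LINC00997, LINC00641 and LINC00472 rose most in the interphase IP, with means over the libraries of 4.05 to 6.65 FPKM. The far more abundant LINC00657 came next. LINC00997, a single-exon lincRNA on chromosome 7 (hg38 chr7:32758286-32762924), had 1.28 and 1.36 FPKM in interphase without IP, 8.80 and 9.93 in the interphase IP, 1.34 and 1.23 in mitosis without IP and 3.87 and 4.58 in the mitotic IP. The groups without IP overlapped, and the interphase IP stood above the mitotic IP. In interphase the IP raised it by 2.16 ± 0.12 and in mitosis by 1.19 ± 0.12 (limma adjusted p of 9.74e-07 and 4.86e-05), and the 2 effects differed by -0.96 ± 0.17 (limma adjusted p = 0.00218). LINC00997 was thus raised more in interphase.

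LINC00641, a processed transcript of 1 exon on chromosome 14, had 1.73 and 2.13 FPKM in interphase without IP, 8.12 and 12.3 in the interphase IP, 2.96 and 3.02 in mitosis without IP and 9.64 and 8.99 in the mitotic IP. LINC00472, a lincRNA on chromosome 6, had 2.92 and 2.38, then 12.5 and 11.4, then 3.20 and 2.78, and 10.4 and 7.68 FPKM in the same order of groups. In both genes the IP groups stood apart from the groups without IP. The rise of LINC00641 was 1.91 ± 0.18 in interphase and 1.37 ± 0.18 in mitosis, and that of LINC00472 was 1.83 ± 0.16 and 1.32 ± 0.16 (limma adjusted p between 7.8e-06 and 0.000151). The differences between phases, -0.54 ± 0.25 and -0.51 ± 0.22, did not pass the test (limma adjusted p of 0.106 and 0.0893), but both did under some alternatives. That of LINC00641 passed without interphase IP replicate 1 (-0.81) and with quantile normalization (-0.70), and was -0.27 without interphase IP replicate 2. That of LINC00472 passed with quantile normalization (-0.68), with the trends on length and GC content removed (-0.66), without mitosis IP replicate 1 (-0.71) and, at a limma adjusted p of 0.029, with a replicate block, and was -0.32 without mitosis IP replicate 2.

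LINC00674, annotated as a transcribed pseudogene on chromosome 17, had 7.77 and 8.84 FPKM in interphase without IP, 28.1 and 32.4 in the interphase IP, 8.08 and 6.39 in mitosis without IP and 18.6 and 15.0 in the mitotic IP. Both IP groups stood above the groups without IP. The rise was 1.75 ± 0.15 in interphase and 1.11 ± 0.15 in mitosis (limma adjusted p of 7.69e-06 and 0.000199). The smaller rise in mitosis, by 0.63, had a limma adjusted p of 0.036 and was lost without any 1 of 5 libraries, which gave -0.49 (mitosis no-IP replicate 1 and, separately, mitosis IP replicate 2), -0.54 (interphase IP replicate 2), -0.55 (interphase no-IP replicate 1) and -0.72 (interphase no-IP replicate 2). LINC01004, an antisense RNA on chromosome 7, had 0.326 and 0.246 FPKM in interphase without IP and 2.12 and 1.43 in the IP, and 0.479 and 0.344 in mitosis without IP and 3.28 and 2.01 in the IP. Its IP groups did not overlap the groups without IP. Its rise was 1.10 ± 0.18 in interphase and 1.35 ± 0.18 in mitosis (limma adjusted p of 0.000424 and 0.00018).

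Several of these rows cannot be assigned to a LINC RNA alone. LINC01279 lies on chromosome 3 (hg38 chr3:112596794-112601969) beside the row CCDC80 (chr3:112604386-112641143), and current annotation places it within the CCDC80 gene, which codes for a secreted matrix protein. It had 7.08 and 12.1 FPKM in interphase without IP, 33.0 and 59.8 in the interphase IP, 3.53 and 3.68 in mitosis without IP and 8.41 and 8.19 in the mitotic IP. The interphase IP stood highest and mitosis without IP lowest, and the mitotic IP lay within the range of interphase without IP. The row differed with the IP by 2.14 ± 0.28 in interphase and 1.01 ± 0.28 in mitosis (limma adjusted p of 0.000105 and 0.0111), while that of the row CCDC80 was 0.37 (limma adjusted p = 0.0976) and -1.03 (limma adjusted p = 0.00116). The difference between phases for LINC01279, -1.13 (limma adjusted p = 0.0428), was lost without any 1 of 6 libraries. It was -0.71 without interphase IP replicate 2, -0.78 without interphase no-IP replicate 1, and -1.11 to -1.15 without any 1 of the 4 mitotic libraries. It was also lost at a pseudocount of 0.1 (-1.07) and with the trends on length and GC content removed (-0.53). With these trends removed, the mitotic IP difference, 0.44, did not pass either. The length and GC content used for this row come from a 12430-nt CCDC80 transcript, which is longer than the interval of 5176 bases.

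LINC00597 is listed at the interval of PEAK1 on chromosome 15 (hg38 chr15:77108156-77420104), a gene for a cytoskeletal pseudokinase. It had 0.346 and 0.138 FPKM in interphase without IP, 1.10 and 0.657 in the interphase IP, 0.581 and 0.604 in mitosis without IP and 4.94 and 3.50 in the mitotic IP. Both mitotic IP libraries were above all others. Its IP difference was 1.70 ± 0.16 in mitosis (limma adjusted p = 3.5e-05) and 0.59 ± 0.16 in interphase (limma adjusted p = 0.00943). The interphase call was lost without interphase no-IP replicate 2 (0.47) and without interphase IP replicate 1 (0.42). PEAK1 itself differed by 1.82 in interphase and 1.45 in mitosis (limma adjusted p of 1.73e-06 and 1.6e-05). LINC00260 shares the interval of ATP2B4 on chromosome 1 (hg38 chr1:203626787-203744081), a plasma membrane calcium pump gene, and had 0.229 and 0.328 FPKM in interphase without IP, 1.70 and 1.22 in the interphase IP, 3.67 and 3.13 in mitosis without IP and 11.8 and 8.91 in the mitotic IP. Its 4 groups did not overlap. It rose with the IP by 0.94 ± 0.16 in interphase and 1.36 ± 0.16 in mitosis (limma adjusted p of 0.000577 and 9.48e-05), whereas ATP2B4 differed by 1.09 (limma adjusted p = 0.000221) and 0.38 (limma adjusted p = 0.0648). How the reads of such overlapping rows were divided is not given in the sources used here.

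The IP effect itself differed between the phases for 28 of the 126 genes, 16 with a higher and 12 with a lower value in mitosis, at a median difference of 0.04 against 0.07 for all rows. Of all 13471 rows, 27.2% were called higher and 19.9% lower (47.1% in all). With quantile normalization 11 were higher and 16 lower, against 3209 and 3354 of all rows. The 12 became 3 without interphase no-IP replicate 1, 6 without interphase no-IP replicate 2 and also without mitosis no-IP replicate 1, and 7 without interphase IP replicate 2 and also without mitosis IP replicate 1.

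LINC01605 fell with the IP in interphase and rose with it in mitosis. It is a lincRNA on chromosome 8 (hg38 chr8:37406464-37493913) and had 15.2 and 16.6 FPKM in interphase without IP, 7.23 and 9.98 in the interphase IP, 14.2 and 15.4 in mitosis without IP and 20.8 and 20.2 in the mitotic IP. The groups without IP overlapped, the interphase IP lay below them and the mitotic IP above. Its IP difference was -0.83 ± 0.14 in interphase (limma adjusted p = 0.00056) and 0.45 ± 0.14 in mitosis (limma adjusted p = 0.0205), and the effects differed by 1.27 ± 0.20 (limma adjusted p = 0.00103). The mitotic rise did not pass the test without mitosis no-IP replicate 1 (0.39), mitosis IP replicate 1 (0.42) or mitosis IP replicate 2 (0.47). With the trends on length and GC content removed, the interphase value was 0.63 (limma adjusted p = 0.00456), in the other direction, and the difference between phases, at 0.34, did not pass (limma adjusted p = 0.206).

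LINC00941 did the opposite. It is a lincRNA on chromosome 12 (hg38 chr12:30795681-30802711) and had 4.60 and 5.13 FPKM in interphase without IP, 7.17 and 8.36 in the interphase IP, 7.67 and 6.65 in mitosis without IP and 4.35 and 5.71 in the mitotic IP. The interphase IP and mitosis without IP overlapped at the upper level, and the other groups overlapped at the lower. Its IP difference was 0.58 ± 0.15 in interphase (limma adjusted p = 0.00632) and -0.44 ± 0.15 in mitosis (limma adjusted p = 0.0269), and the effects differed by -1.02 ± 0.21 (limma adjusted p = 0.00414). The mitotic value was -0.28 without mitosis IP replicate 1 and -0.35 without mitosis no-IP replicate 1, and neither passed the test. It also missed the test at -0.32 with quantile normalization and -0.35 with the library medians equalised. With the trends on length and GC content removed the interphase value was -0.84 (limma adjusted p = 0.000733), in the other direction, and the difference between phases, at -0.33, did not pass (limma adjusted p = 0.208). The length and GC content of this gene come from a 16489-nt transcript that is longer than the interval in the table.

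LINC01604, also called MINCR, showed the largest difference between the phases. It is known as an antisense RNA whose level follows the transcription factor MYC, and had 4.07 and 4.26 FPKM in interphase without IP, 0.0844 and 0.201 in the interphase IP, 0.218 and 0.258 in mitosis without IP and 0.143 and 0.158 in the mitotic IP. The 2 interphase libraries without IP stood far above the other 6, which were all below 0.3 FPKM. With the IP it differed by -2.18 ± 0.09 in interphase (limma adjusted p = 2.96e-07) and -0.11 ± 0.09 in mitosis (limma adjusted p = 0.321), and the level without IP fell by 2.06 ± 0.09 in mitosis (limma adjusted p = 1.17e-06). The log2(FPKM + 1) scale understates changes among values this low, so a small mitotic IP effect on LINC01604 could go uncalled. With 0.218 and 0.258 FPKM in mitosis without IP, a fall there also had little room on this scale. The difference between phases was therefore largely set by the interphase drop. A rise at a like level was called. LINC00327 had 0.157 and 0.249 FPKM in mitosis without IP and 0.549 and 0.386 in the mitotic IP. Its rise of 0.29 ± 0.09 passed the test (limma adjusted p = 0.018). A rise is not bounded in this way, so that call does not show that a fall of LINC01604 would be called.

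Without IP, more LINC genes were lower in mitosis than were higher. Between the states 42 of the 126 fell and 19 rose, at a median of -0.10 against -0.00 for all rows, while 26.2% of all rows were called higher and 25.5% lower (51.7% in all). In bulk libraries, fewer cells holding an RNA and less of it per cell cannot be told apart. Of all rows, 3488 rose and 3385 fell with quantile normalization, and 3010 rose and 4134 fell with equalised medians. Of the LINC genes, 25 rose and 30 fell, and 12 rose and 46 fell, in the same order. The number that rose was 8 without interphase no-IP replicate 1, 9 without interphase no-IP replicate 2 and 12 without mitosis no-IP replicate 1, and the number that fell was 26 without interphase no-IP replicate 2. In the IP, 32 were lower and 16 higher in mitosis, at a median of -0.04 against 0.08 for all rows, where 35.8% of all rows were called higher and 25.6% lower (61.4% in all). The comparisons with and without IP use different libraries. Of the LINC genes, 21 fell in both and 11 rose in both. LINC00941 rose without IP and fell in it, and LINC00116 and LINC00339 fell without IP and rose in it. Such joint calls were not counted over all rows, so these counts have no share to be set against. The rise of LINC00116 in the IP, 0.49 ± 0.13 (limma adjusted p = 0.0121), was lost without interphase IP replicate 2 (0.38) or mitosis IP replicate 1 (0.41) and with the trends on length and GC content removed (0.15). The rise of LINC00941 without IP, 0.47 ± 0.15 (limma adjusted p = 0.0254), was lost without interphase no-IP replicate 1 (0.41) or 2 (0.54) or mitosis no-IP replicate 1 (0.38), and its drop in the IP, -0.54 ± 0.15 (limma adjusted p = 0.0111), without interphase IP replicate 2 (-0.45) or mitosis IP replicate 1 (-0.38). With those trends removed they were 0.12 and -0.20, and neither passed.

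**Figure D3:**
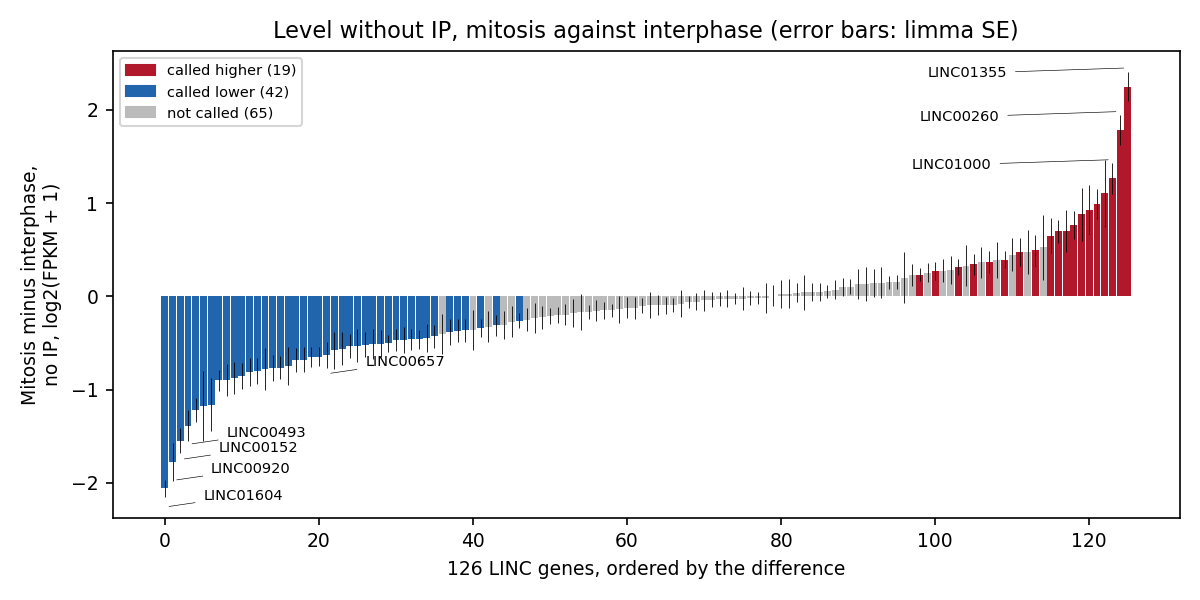
Mitosis minus interphase without IP on the log2(FPKM + 1) scale for the 126 LINC genes in order of the difference (bars, limma estimate; error bars, SE; n = 2 libraries a group). The 42 genes called lower reach -2.06 in LINC01604 and the 19 called higher reach 2.25 in LINC01355.

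LINC01355 was the most raised of the 126 in mitosis without IP. It is a single-exon lincRNA on the minus strand of chromosome 1 (hg38 chr1:23281309-23285518) and had 0.549 and 0.635 FPKM in interphase without IP, 2.00 and 1.39 in the interphase IP, 6.41 and 6.73 in mitosis without IP and 10.4 and 8.05 in the mitotic IP. The 4 groups did not overlap. Its level without IP rose by 2.25 ± 0.16 from interphase to mitosis (limma adjusted p = 1.66e-05) and in the IP by 1.92 ± 0.16 (limma adjusted p = 1.43e-05). The IP raised it by 0.75 ± 0.16 in interphase (limma adjusted p = 0.00198) and 0.42 ± 0.16 in mitosis (limma adjusted p = 0.0398). The mitotic call was lost without mitosis IP replicate 1 (0.26), mitosis no-IP replicate 1 (0.39) or mitosis no-IP replicate 2 (0.45) and at a pseudocount of 0.1 (0.47), and with length and GC trends removed both IP values turned negative, to -0.47 and -0.35.

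LINC00920 went the other way. It is a lincRNA of 2 exons on the plus strand of chromosome 16 (hg38 chr16:66408524-66410900) and had 3.13 and 4.68 FPKM in interphase without IP, 4.44 and 5.90 in the interphase IP, 0.464 and 0.369 in mitosis without IP and 0.209 and 0.673 in the mitotic IP. All 4 interphase libraries were above all 4 mitotic ones, and within each state the IP and no-IP ranges overlapped. It fell from interphase to mitosis by 1.77 ± 0.20 without IP (limma adjusted p = 0.000213) and by 2.11 ± 0.20 in the IP (limma adjusted p = 3.47e-05). The IP differences, 0.34 ± 0.20 in interphase and 0.01 ± 0.20 in mitosis, did not pass the test (limma adjusted p of 0.162 and 0.981). The interphase value ranged from 0.11 without interphase no-IP replicate 1 to 0.57 without interphase no-IP replicate 2 (limma adjusted p = 0.051), and was 0.51 and 0.17 without interphase IP replicates 1 and 2.

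The promoters of LINC01355 and LINC00920, with the largest rise and the second largest fall from interphase to mitosis without IP among the 126 genes, are shown as examples from either end of that comparison. They are RefSeq sequences on GRCh38.p14, from 250 bases before to 50 after the start, with capitals at each CCAAT (the CCAAT box) and each TTTGAA (an element known in genes of the late cell cycle), on either strand.
LINC01355, minus strand, chr1:23285469-23285768: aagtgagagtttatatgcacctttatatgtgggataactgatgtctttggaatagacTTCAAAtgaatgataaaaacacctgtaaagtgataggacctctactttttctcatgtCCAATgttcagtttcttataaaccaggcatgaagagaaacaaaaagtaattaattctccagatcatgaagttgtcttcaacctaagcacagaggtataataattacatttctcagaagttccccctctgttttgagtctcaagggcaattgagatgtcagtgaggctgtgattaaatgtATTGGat
LINC00920, plus strand, chr16:66408274-66408573: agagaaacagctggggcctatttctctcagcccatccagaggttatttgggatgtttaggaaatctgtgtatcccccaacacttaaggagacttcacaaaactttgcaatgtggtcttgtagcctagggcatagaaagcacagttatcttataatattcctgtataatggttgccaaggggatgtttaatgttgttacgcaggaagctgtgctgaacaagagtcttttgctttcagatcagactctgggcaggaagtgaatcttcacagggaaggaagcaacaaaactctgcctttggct
The LINC01355 window held 2 CCAAT and 1 TTTGAA, and that of LINC00920 held neither. The window of LINC00152, which also fell in mitosis without IP and is not printed, held 1 CCAAT and 1 TTTGAA. Holding these letters therefore did not separate the gene that rose from those that fell. Of the 105 LINC genes with a promoter in that set, 43.8% held CCAAT and 18.1% TTTGAA, against 35.7% and 15.4% of all 27305 promoters. CCAAT stood in 8 of the 16 promoters of genes that rose in mitosis without IP and in 16 of the 36 of genes that fell, and TTTGAA in 3 and 4. Nothing about a factor follows from these letters or from their absence.

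Other LINC genes that rose in mitosis included LINC01000 on chromosome 7, with 1.09 and 0.945 FPKM in interphase and 4.22 and 3.49 in mitosis without IP. Its groups did not overlap, and the rise was 1.27 ± 0.17 (limma adjusted p = 0.000398). LINC00260 rose from its 0.229 and 0.328 FPKM by 1.78 ± 0.16 (limma adjusted p = 6.35e-05), while ATP2B4 at the same interval rose by 1.04 (limma adjusted p = 0.000863). Among those that fell, LINC00493 dropped by 1.39 ± 0.17 (limma adjusted p = 0.000251), LINC01420 by 0.90 ± 0.11 (limma adjusted p = 0.000298) and LINC00116 by 0.85 ± 0.13 (limma adjusted p = 0.001).

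LINC01317, a lincRNA on chromosome 2, had 4.03 and 4.13 FPKM in interphase without IP, 5.75 and 6.37 in the interphase IP, 0.469 and 2.46 in mitosis without IP and 0.885 and 2.31 in the mitotic IP. Interphase lay above mitosis throughout, but the mitotic replicates stood far apart. The difference without IP was -1.17 ± 0.37 (limma adjusted p = 0.027), and it was -0.56 without mitosis no-IP replicate 1 and -1.79 without mitosis no-IP replicate 2. The call was lost without the former and without either interphase no-IP library (-1.19 without replicate 1, -1.16 without replicate 2). In the IP the difference was -1.50 ± 0.37 (limma adjusted p = 0.00714), and -1.09 (limma adjusted p = 0.0509) without mitosis IP replicate 1.

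For some further LINC genes, not all of them abundant, the calls depended on the setting. LINC00704, or MANCR, a lincRNA on chromosome 10 known as an RNA of aggressive breast cancer cells, had 17.3 and 23.3 FPKM in interphase without IP, 20.1 and 30.7 in the interphase IP, 21.1 and 40.8 in mitosis without IP and 33.0 and 57.4 in the mitotic IP. Replicate 2 was above replicate 1 in each of the 4 groups, the groups overlapped, and without a replicate block no comparison passed the test (IP difference 0.30 ± 0.35 in interphase and 0.55 ± 0.35 in mitosis, limma adjusted p of 0.461 and 0.195), except the mitotic IP difference without mitosis no-IP replicate 2, at 1.01, and the difference between states in the IP without mitosis IP replicate 1, at 1.17. With a replicate block, the mitotic IP difference (0.55, limma adjusted p = 0.00463) and the differences between the states without IP (0.53, limma adjusted p = 0.00795) and in the IP (0.78, limma adjusted p = 0.000745) passed. LINC01578, or CHASERR, an RNA known to restrain the neighbouring chromatin remodeller gene CHD2, had 27.2 and 31.0 FPKM in interphase without IP, 29.0 and 33.3 in the interphase IP, 26.0 and 27.2 in mitosis without IP and 24.3 and 20.8 in the mitotic IP. The mitotic IP was lowest, and the other groups overlapped or adjoined. Its IP difference was 0.09 ± 0.12 in interphase and -0.23 ± 0.12 in mitosis (limma adjusted p of 0.49 and 0.116). The mitotic IP difference passed with quantile normalization (-0.37, limma adjusted p = 0.0204) and with the trends on length and GC content removed (-0.57, limma adjusted p = 0.00232). In the IP it was lower in mitosis, at -0.45 ± 0.12 (limma adjusted p = 0.00972), a call lost without interphase IP replicate 2 (-0.35) or mitosis IP replicate 2 (-0.34). LINC00467, a lincRNA on chromosome 1, had 2.30 and 2.43 FPKM in mitosis without IP and 0.645 and 0.833 in the mitotic IP, groups that did not overlap. By the whole-fragment steps these values were 24 and 32 fragments without IP and only 5 and 12 in the IP. LINC00467 fell by 0.95 ± 0.19 with the mitotic IP (limma adjusted p = 0.00221), and its interphase difference of -0.43 ± 0.19 did not pass (limma adjusted p = 0.0727). That difference passed with a replicate block (limma adjusted p = 0.0211), with the trends on length and GC content removed (-0.92, limma adjusted p = 0.00163) and without interphase IP replicate 2 (-0.72, limma adjusted p = 0.0062), and was -0.27 without interphase no-IP replicate 2 and -0.13 without interphase IP replicate 1.

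Base composition went with the IP effect. Across the 120 LINC genes with an annotated transcript, the Spearman correlation of the interphase IP difference with the GC content of the longest transcript was -0.51, and -0.28 in mitosis. These are descriptions across genes that share the same 8 libraries. Over the 13188 rows with an annotated transcript they were -0.71 and -0.56. With transcript length the correlations were 0.07 and 0.04 for the LINC genes, and 0.53 and 0.28 over all rows. Of the 40 LINC genes with the lowest GC content (up to 43.9%), 22 rose (55.0%) and 3 fell (7.5%) in the interphase IP. Of the 40 with the highest (above 50.6%), 3 rose (7.5%) and 12 fell (30.0%). Over all rows of any GC content, 37.6% rose and 37.0% fell. In mitosis the corresponding counts were 18 and 5 (45.0% and 12.5%), and 6 and 5 (15.0% and 12.5%), against 32.8% and 31.7% of all rows. The other rows were not counted by GC range. Their correlation with GC content shows that the trend was not particular to the LINC genes. The GC content of the longest transcript is a rough measure, because in 40 of the 120 genes that transcript has an exon beyond the interval in the table. LINC00619 and LINC00840 were given the same transcript and are counted separately. The LINC genes did not stand apart in GC content (median 47.8% against 47.6% for all rows), while their longest transcripts were shorter (median 2292 nt against 3613 nt).

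**Figure D4:**
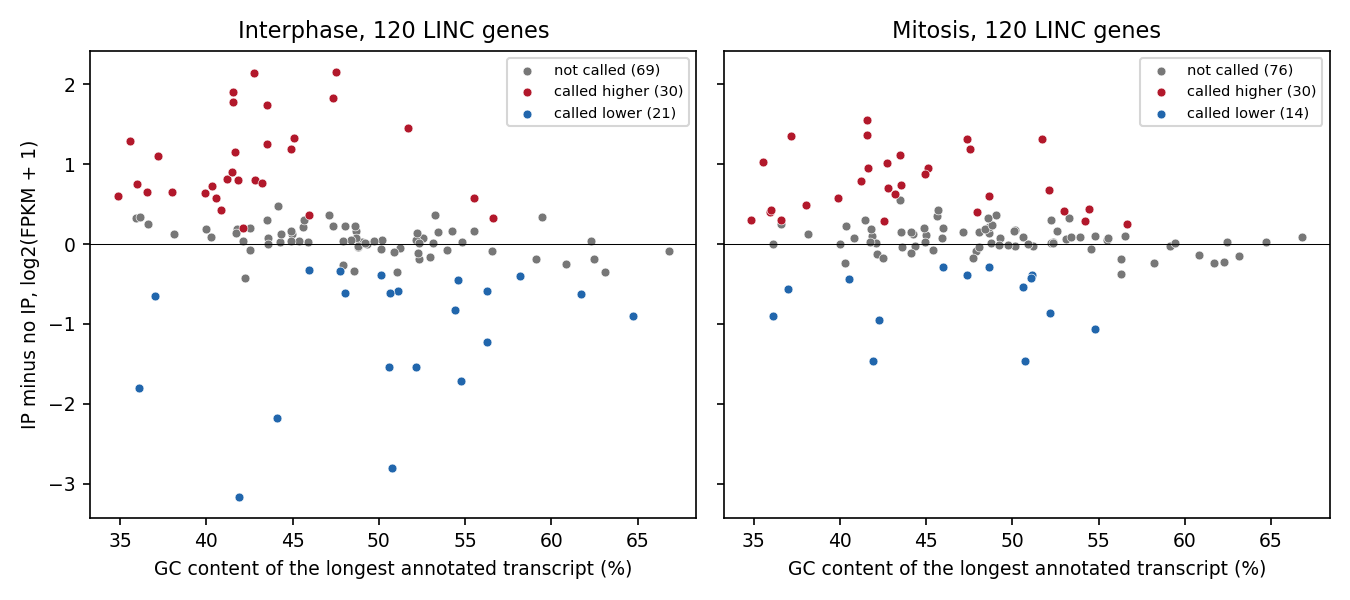
IP minus no IP on the log2(FPKM + 1) scale against the GC content (%) of the longest annotated transcript, for 120 LINC genes in interphase (left) and mitosis (right). In interphase the genes called higher lie mostly to the left. Of the 40 with the highest GC content, 12 (30.0%) were called lower, against 37.0% of all rows.

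The sequences below give 100 bases from the middle of the longest exon that lies within the interval in the table, for 3 noncoding genes raised and 3 lowered by the interphase IP, chosen after their values were seen. LINC00152 and LINC01604, both noncoding, were lowered more than the 3 shown and are not printed. The printed sequences are GENCODE transcript sequences on GRCh38, and capitals mark runs of at least 5 A or T.
LINC00997, raised, plus strand, chr7:32761551-32761650: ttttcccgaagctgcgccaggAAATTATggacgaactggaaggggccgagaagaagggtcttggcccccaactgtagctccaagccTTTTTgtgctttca
LINC00641, raised, minus strand, chr14:21202741-21202840: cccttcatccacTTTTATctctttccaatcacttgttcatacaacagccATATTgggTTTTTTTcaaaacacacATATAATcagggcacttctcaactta
LINC00472, raised, minus strand, chr6:71415452-71415551: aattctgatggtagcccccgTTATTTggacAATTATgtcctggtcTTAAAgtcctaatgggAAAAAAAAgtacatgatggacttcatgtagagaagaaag
LINC01399, lowered, minus strand, chr22:35171468-35171567: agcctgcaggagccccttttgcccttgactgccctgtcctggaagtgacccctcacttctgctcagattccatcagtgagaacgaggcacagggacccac
LINC00339, lowered, plus strand, chr1:22030701-22030800: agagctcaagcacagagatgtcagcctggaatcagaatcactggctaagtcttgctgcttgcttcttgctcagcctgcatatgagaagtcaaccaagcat
LINC01137, lowered, minus strand, chr1:37455345-37455444: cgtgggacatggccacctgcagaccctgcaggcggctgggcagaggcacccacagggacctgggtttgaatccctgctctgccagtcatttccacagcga
The windows of the raised genes held 2, 4 and 4 such runs at a GC content of 53%, 36% and 38%, and those of the lowered genes held none at 59%, 48% and 64%. Runs were not counted in LINC00152 and LINC01604, so this contrast leaves out the most lowered noncoding genes. The whole transcripts had a GC content of 47.5%, 41.6% and 47.4% for the raised genes and 52.2%, 50.6% and 56.3% for the lowered. LINC01604, lowered more than these, had 44.1%. LINC00152, the most lowered gene, had 41.9%, in a longest transcript that runs past the interval of the table. LINC01420 and LINC00998, both lowered, also had low GC contents of 36.1% and 37.0%.

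LINC00339, a processed transcript of chromosome 1, was 1 of 5 LINC genes called in all 5 comparisons, with LINC00116, LINC00493, LINC00941 and LINC01279, though not under every alternative. It had 8.12 and 10.9 FPKM in interphase without IP, 2.39 and 2.82 in the interphase IP, 6.64 and 6.63 in mitosis without IP and 4.21 and 4.28 in the mitotic IP. The 4 groups did not overlap, and the gap between IP and no IP was narrower in mitosis. The IP effect was -1.53 in interphase and -0.54 in mitosis (limma adjusted p of 1.42e-05 and 0.00979), and the effects differed by 0.99 (limma adjusted p = 0.00436). From interphase to mitosis the level changed by -0.45 without IP (limma adjusted p = 0.0302), a call lost without interphase no-IP replicate 2 (-0.26) or either mitotic no-IP library (-0.45 each), and by 0.54 in the IP (limma adjusted p = 0.0102), a call lost without interphase IP replicate 1 (0.46). At the other end, 34 of the 126 genes were called in no comparison. All rows were not counted in this way, so neither count can be set against the table as a whole.

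Named noncoding classes of the same table are given for scale, with counts and medians only. Of 324 genes with an antisense, intronic or overlapping name, 92 rose and 65 fell in the interphase IP (median 0.09), and 114 rose and 23 fell in the mitotic IP (median 0.19). Of 20 hosts of small nucleolar RNAs, 3 rose and 13 fell in interphase (median -0.87), and 3 rose and 11 fell in mitosis (median -0.52). The abundant nuclear RNAs MALAT1, NEAT1 and TUG1 all rose in both phases, with medians of 1.99 and 1.52. LINC00657 lay between the lowest and the highest of these 3 in both phases (1.58 to 2.78 in interphase, 1.10 to 2.29 in mitosis). Whether the LINC genes differ from these classes was not tested.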

How the data were processed

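RNA from 8 libraries was compared in 4 groups of 2. The deposited gene table holds FPKM for each library, made by the authors, per the file headers. TopHat and StringTie are named in the submitters' processing notes, without versions or settings. A second deposited table, of lncRNAs on another build without gene names, and the authors' ratio columns were not used. The members and lists were chosen with earlier results of these data known. One limma 3.58.1 model in R 4.3.3 (lmFit, contrasts.fit, eBayes with an intensity trend) took log2(FPKM + 1) of all 13471 rows and 8 libraries, unfiltered and unblocked, with the 4 groups as coefficients and 4 residual degrees of freedom. Benjamini-Hochberg adjustment ran over all rows, and genes with an adjusted p below 0.05 count as called. The script was tested on simulated data. A log2 fold change on this scale understates changes of low genes. Fragment totals are not given, so no detection floor is printed. Named genes are, per comparison, the called genes with the largest changes in each direction that share a sign in both replicate numbers (5 each for the IP, 3 each otherwise), the 8 most abundant, and those of the small-protein and cytoplasmic lists or with opposite IP calls. LINC00339, LINC01399 and LINC01137 were added after their values were seen. Alternatives were a pseudocount of 0.1, a mean of at least 1 FPKM, quantile normalization, equalised medians, a replicate block, removal of length and GC trends, and leaving out each library.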

Additional observations from a re-analysis of the deposited data

Results flagged for a closer look

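For 11 named LINC genes the IP effect differed between mitosis and interphase by a test of the difference itself (limma interaction, Benjamini-Hochberg over all rows). The value was higher in mitosis for LINC01604 (2.07), LINC00152 (1.69), LINC00116 (1.34), LINC01605 (1.27), LINC00597 (1.11), LINC01420 (0.89) and LINC00493 (0.65). It was lower in mitosis for LINC01279 (-1.13), LINC00941 (-1.02), LINC00997 (-0.96) and LINC00674 (-0.63). Of these, LINC00493, LINC00674 and LINC01279 lost the call without single libraries, as given beside their values. With the trends on length and GC content removed, the calls of LINC00941 (-0.33), LINC01605 (0.34) and LINC01279 (-0.53) were also lost, and that of LINC00493 turned to -0.31, which did not pass. At a pseudocount of 0.1, LINC00597 (1.07, limma adjusted p = 0.113), LINC01279 (-1.07) and LINC00493 (0.63) did not pass. LINC00493 also missed the test with quantile normalization (0.55, limma adjusted p = 0.0981) and with equalised medians (0.62, limma adjusted p = 0.0608). In LINC01604, LINC00152, LINC00116 and LINC01420 the level without IP also fell in mitosis, by 2.06, 1.55, 0.85 and 0.90, while the level in the IP differed between states by 0.01, 0.14, 0.49 and -0.01.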

How the results depend on the processing

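Of 120 named results, 79 were called. Removing the trends on length and GC content reversed 5 called results among the 105 it could be run on: the interphase IP values of LINC00941 (-0.84), LINC01355 (-0.47) and LINC01605 (0.63), the mitotic IP value of LINC01355 (-0.35) and the difference between phases of LINC00493 (-0.31). The other alternatives reversed no called result. With these trends removed, 68 of 120 LINC genes rose in the interphase IP, against 4415 of the 13188 rows with an annotated transcript. Under the same setting the difference between phases was higher in 10 and lower in 33 LINC genes, against 2937 and 2697 rows. Between the states in the IP, 9 LINC genes then rose and 55 fell, against 4252 and 4269 rows. The cause was not tested. With equalised medians, 8 LINC genes fell in the mitotic IP and 12 rose in mitosis without IP, against 3793 and 3010 of all rows. Above a mean of 1 FPKM, where fewer genes are tested, 2599 of all rows and 7 LINC genes had a lower difference. The median difference between phases, 0.04, was -0.07 above a mean of 1 FPKM, -0.0338 with quantile normalization, -0.24 without the trends and -0.0064 to 0.0379 with 1 library left out (the lowest without interphase IP replicate 2). Leaving out 1 library gave 9 to 14 that fell in the mitotic IP, 3 to 12 with a lower difference, and 8 to 14 that rose and 26 to 33 that fell in mitosis without IP, and it reversed no called result (50 of 576 lost and 10 gained a call). Some differences between phases that were not called changed sign, as those of LINC01317 (-0.32, and 0.29 without mitosis no-IP replicate 2), LINC00704 (0.26, and -0.20 without mitosis no-IP replicate 1) and LINC01004 (0.25, and -0.0071 without mitosis IP replicate 1). Replicate numbers are not stated to mark shared days. With the replicate block, 37 LINC genes rose and 25 fell with the IP in interphase, and 38 and 14 in mitosis. Over all rows these counts were 5217 and 5157, and 4619 and 4480. The difference was higher in 18 and lower in 13 LINC genes, against 3988 and 2925 rows. Between the states 23 LINC genes rose and 43 fell without IP, and 18 and 33 in the IP. Over all rows these were 3825 and 3752, and 5093 and 3640. With the block LINC00704 gained calls in the mitotic IP (0.55) and between the states without IP (0.53) and in the IP (0.78). The deviations of same-numbered libraries correlated by 0.088 to 0.53 between groups. With 2 libraries a group, and values of 1 or a few fragments in low genes, small differences could not be detected.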
